A study of Mus musculus with 2 samples.

Results

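Mouse natural killer (NK) cells are commonly staged by a pair of surface proteins. CD27, encoded by Cd27, is a tumour necrosis factor receptor family member of early cells, and CD11b, the integrin alpha M chain encoded by Itgam, is acquired later. In the usual scheme, CD27-only cells become cells with both proteins, and these become CD11b-only cells with loaded cytotoxic granules. The boundary between the first pair of stages was examined here in transcripts: NK cells of the spleen with Cd27 but no Itgam were compared with cells holding both. The members were selected on measured counts. A barcode had to show exactly 1 lipid tag, at least 2 of the NK genes Ncr1, Klrb1c and Klre1, and neither Trac nor Cd79a, the T and B cell receptor genes. Each cell was then thinned at random to 2500 unique molecular identifiers (UMIs, each standing for 1 captured transcript), because a deeper cell would show Itgam more often. Of 16384 barcodes, 8978 passed the NK gate and 7950 of these were deep enough. Among them 1116 were Cd27-only and 440 held both genes (double-positive), 1556 cells together. The rest were 2482 Itgam-only and 3912 double-negative cells.

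The animals were wild-type mice, with no treatment named in the labels, and their age is not given there. NK cells were isolated from spleens by magnetic removal of other lineages, and cells of several mice were tagged and pooled into 1 single-cell library with 3' chemistry. All groups below are divisions of that 1 wild-type library, so no genotype or treatment differs between them. The 2 samples of the series form 1 group, and 1 of them was not analysed here. The labels do not say which mouse a tag marks. The 3 tags serve as replicates (n = 3). With tag as a block, p-values measure how far the class difference varies from tag to tag, with that spread partly shared between genes. This variation may be technical, and p-values do not measure a spread between mice.

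In the 3 tags, Cd27-only cells numbered 340, 434 and 342, which was 14.01% ± 0.343 of a tag's cells (SD, n = 3). Double-positive cells numbered 144, 174 and 122, or 5.52% ± 0.481. The summed counts behind each value ran from 1928942 to 2738637 UMIs per tag in Cd27-only cells and from 580925 to 922018 in double-positive cells, so the second class sets the precision. Median depth before thinning was 5308 against 4330.5 UMIs, and median mitochondrial share was 1.49% against 1.41%. After thinning, the median number of genes was 1351.5 against 1368.

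The division rests on few molecules. Exactly 1 Cd27 UMI was found in 82.9% of Cd27-only and 87.0% of double-positive cells, and exactly 1 Itgam UMI in 71.8% of double-positive cells. Cd27 was seen in 19.6% and Itgam in 36.8% of NK-gate cells. In 554 cells passing a B cell gate, thinned to the same depth, the shares were 5.78% and 2.17% (median depth before thinning 4069 UMIs). Both genes were held by 5.53% of NK-gate cells, where unrelated genes would give 7.19%. Cd27 was seen in 15.1% of Itgam-positive and 22.2% of Itgam-negative cells. A second random thinning gave the same class again to 623 of the 1116 Cd27-only cells (55.8%) and to 223 of the 440 double-positive cells (50.7%). Of the 1116 Cd27-only cells, 238 held an Itgam UMI that thinning had removed. From the share of barcodes with several tags, about 1326 same-tag doublets were expected in the NK gate, 14.8% of its 1-tag cells. Barcodes with several tags were double-positive in 6.45% of cases, against 5.53% of 1-tag cells. A fit that kept barcodes with several tags is given in the section on processing. The part of doublets in the results was not tested.

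As a description of the rule, Itgam stood at 57.3, 54.4 and 42.0 CPM (counts per 1e6 UMIs of the class in a tag, from unthinned counts) in Cd27-only cells. In double-positive cells it stood at 354, 398 and 442. Cd27 stood at 290 ± 0.750 CPM against 315 ± 33.0 (SD, n = 3). Itgam lies at chr7:128062640-128118491 on the plus strand and Cd27 at chr6:125232622-125237010 on the minus strand (mm10, GENCODE M21). Each overlaps another annotated gene on its own strand. Of the NK genes in the rule, Ncr1, the receptor gene that marks NK cells, stood at 772 ± 38.8 against 788 ± 73.4. The other NK genes of the rule, Klrb1c and Klre1, were not level: both were called lower in Cd27-only cells by the test below.

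Cd27-only cells had higher levels of genes of early NK cells, such as Xcl1, Ltb, Cd160, Cd7 and Emb, and lower levels of genes of late NK cells, such as Klrg1, Cma1, Gzmb, Gzma, Prf1 and Zeb2. By edgeR's quasi-likelihood test with tag as a block, 8908 genes were tested and 499 passed an adjusted p of 0.05. Of these, 318 (3.57% of those tested) had more transcript in Cd27-only cells and 181 (2.03%) had less. Genes used by the rule made up 9 of them; without these the counts were 312 and 178. In summed counts, more cells with a transcript and more of it per cell cannot be told apart. All but 3 of the 499 moved the same way in 3 of 3 tags. Changes of at least 1 on the log2 scale were mostly upward, with 93 higher and 14 lower, and the median over all genes tested was 0.000464. Some of the 93 entered the test through Cd27-only sums alone, such as Hist1h3c (95 against 0 UMIs) and Pclaf (264 against 1). The classes also differ in summed UMIs, 6743676 against 2189477, so this imbalance is not read as a result. Tag ranges of the classes did not overlap for 447 of the called genes and for 1775 of all tested. Without the tag block 202 were higher and 81 lower, and DESeq2 called 105 and 44. The block decided the call of 33 of 115 called genes followed, among them Fos, Fosb, Jun and Junb. Others were Myb, Gpr183, Zeb1, Tnfsf10, Klrc1, Klrd1, Lag3, Tyrobp, Syk, Csf2, Itga4, Itgb1, Cxcr6, Il12rb2, Jak1, Il21r, Kcnip3, H2afz, Zc2hc1a, Ndnf, Cox6a2 and Tmem176b, which had adjusted p from 0.060 to 0.45 without it, beside Emb, Irf8, Ccl4 and Hba-a1 below. With at least 2 Cd27 UMIs required (191 against 57 cells), 2 and 2 passed the edgeR test. There 127 and 122 had an unadjusted p below the same threshold. Genes without any difference also reach such unadjusted values, so these counts are not read as a result. Of 71 followed genes with a value in that setting, 3 kept their call and 6 changed sign.

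**Figure D1:**
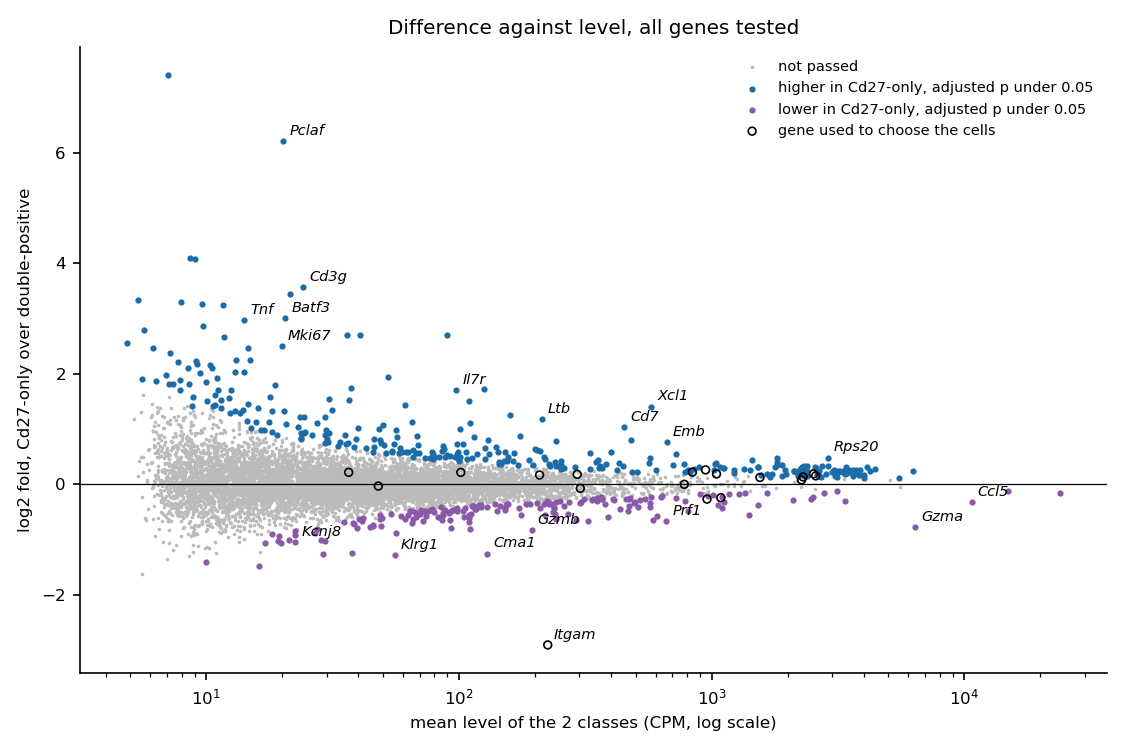
Each point is 1 tested gene: its mean level in the Cd27-only and double-positive classes (CPM, log axis) against its log2 fold (Cd27-only over double-positive). Higher genes past the threshold are blue (318 with the rule's genes), lower ones purple (181 with the rule's genes), and genes used to choose the cells are open circles. Large upward folds lie mostly at low levels, and Gzma, at 4664 against 8114 CPM, stands apart at high level.

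Among genes of early NK cells, Xcl1 changed most clearly. It encodes the chemokine XCL1, which attracts cross-presenting dendritic cells, and lies at chr1:164931644-164935527 (minus strand, mm10, GENCODE M21). Its level was 662, 976 and 850 CPM in the 3 tags of Cd27-only cells and 320, 290 and 356 in double-positive cells. Every Cd27-only tag was above every double-positive tag. The fold on the log2 scale was 1.41 (SE 0.08, edgeR adjusted p = 7.6e-14), and Itgam-only cells stood lower still at 209 ± 9.93 (SD, n = 3). The 10 Cd27-only cells with the most Xcl1 UMIs held 22.0% of its UMIs. Xcl1 UMIs were found in 52.9% of Cd27-only and 35.5% of double-positive cells after thinning, and in 3.25% of B-gate cells.

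Ltb, which encodes lymphotoxin beta, a cytokine of lymphoid tissue organization, stood at 263, 294 and 316 CPM against 150, 97.6 and 157. The groups did not overlap, and the fold on the log2 scale was 1.18 (SE 0.11, edgeR adjusted p = 2.7e-09). Cd160, the gene of an activating receptor for HVEM, stood at 197, 245 and 223 against 99.0, 99.8 and 87.8 CPM, a log2 fold of 1.24 (SE 0.11, edgeR adjusted p = 8.7e-10). Cd7, an early lymphoid surface protein gene, stood at 564, 640 and 597 against 283, 302 and 315 CPM. Its fold on the log2 scale was 1.04 (SE 0.07, edgeR adjusted p = 2.4e-12). In all 3 genes the lowest Cd27-only tag was above the highest double-positive tag.

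Emb, which encodes embigin, a partner of monocarboxylate transporters, differed by tag as well as by class. Tag 1 had 1146 CPM in Cd27-only against 769 in double-positive cells, tag 2 at 689 and 418, and tag 3 at 643 and 327. The tag ranges overlapped, while the order within each tag was the same. The fold on the log2 scale was 0.76 (SE 0.06, edgeR adjusted p = 4.0e-10) with the tag block and 0.74 (adjusted p = 0.11) without it. Tcf7, the gene of the transcription factor TCF-1, showed the same tag pattern, at 204, 150 and 160 CPM against 149, 87.9 and 94.7. The groups did not overlap, and its log2 fold was 0.68 (SE 0.11, edgeR adjusted p = 6.5e-05).

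Of a list of 23 immature NK genes, all tested, 16 rose and 0 fell toward Cd27-only cells, with a median log2 fold of 0.74. Of all genes tested, 3.57% rose and 2.03% fell. This list and the mature list below were chosen with earlier results of these data known. Their one-sided counts are therefore a description and no independent support. Among the 7 that did not pass, Ccr2, Ctla2a, Thy1, Plxnc1, Kbtbd11 and Cmtm7 had log2 folds from -0.08 (Ccr2, a chemokine receptor gene) to 0.45 (Kbtbd11). Crtam, the gene of an adhesion receptor of cytotoxic lymphocytes, stood at 88.7 ± 18.7 against 42.2 ± 5.96 CPM (SD, n = 3; log2 fold 1.13, edgeR adjusted p = 5.7e-06). Nrgn, which encodes the calmodulin-binding protein neurogranin, had a log2 fold of 1.00 (edgeR adjusted p = 6.8e-06), and Kit, the stem cell factor receptor gene, 0.99 (edgeR adjusted p = 8.8e-05). The chemokine receptor gene Cxcr3 (0.74), the SLAM family receptor gene Slamf6 (0.89), Myb (0.73), Gpr183 (1.22) and Rftn1 (0.59) passed with all tags but not each time a tag was left out. Here and below, fits without 1 tag share the spread fully between genes, unlike the full comparison. Calls kept or lost there do not measure how far a gene's own fold varies between tags. Without tag 1, Slamf6 was at 0.67 (edgeR adjusted p = 0.11), Myb at 0.61 (0.22) and Rftn1 at 0.55 (0.095). Without tag 2, Cxcr3 was at 0.55 (edgeR adjusted p = 0.21), Gpr183 at 0.68 (0.20) and Rftn1 at 0.62 (0.079). Without tag 3, Myb was at 0.73 (edgeR adjusted p = 0.057).

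**Figure D2:**
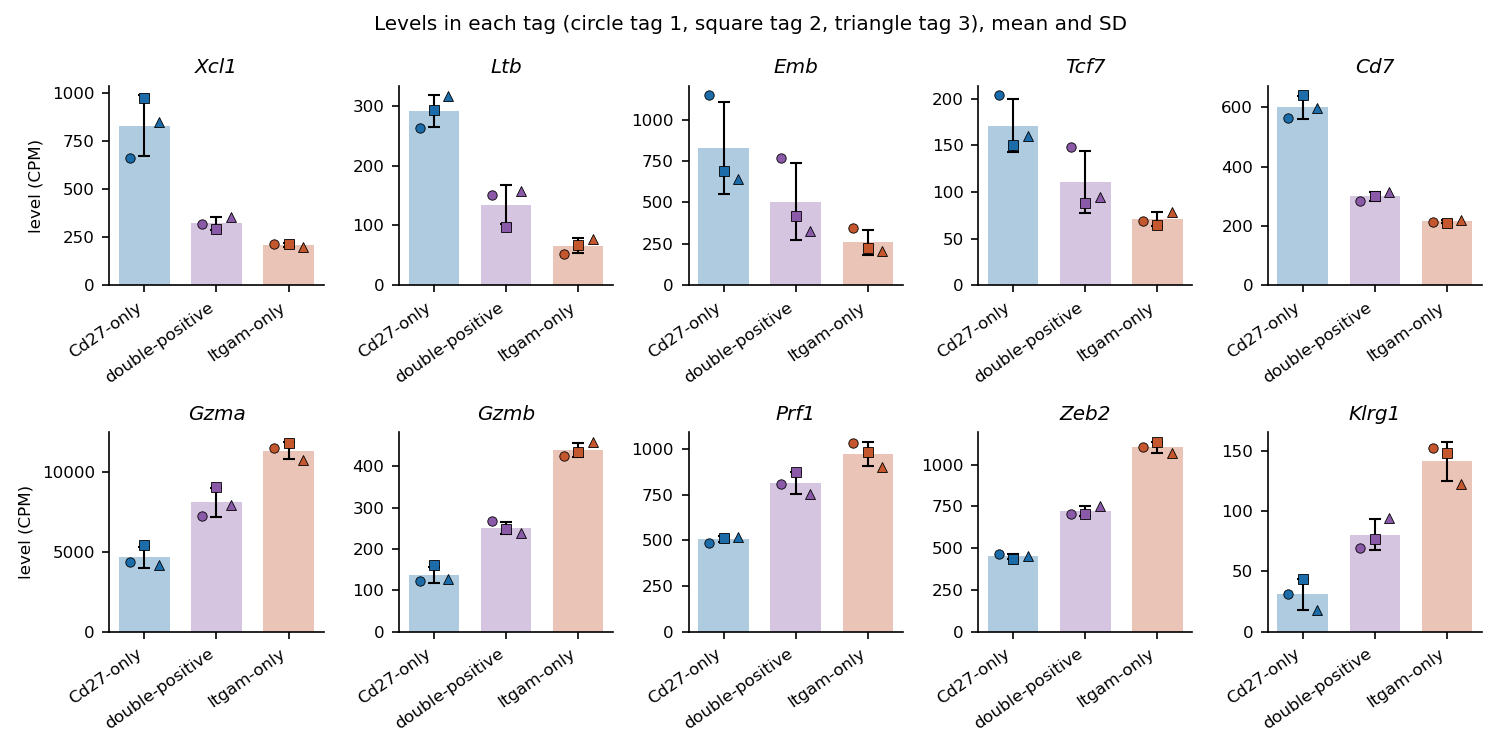
Levels (CPM, linear axes from 0) of 10 genes in each tag, with the mean as a bar and the SD over the 3 tags as a line, in Cd27-only, double-positive and Itgam-only cells. In all 10 panels the double-positive mean lies between the other classes, and among them the tag ranges of Cd27-only and double-positive cells overlap for Emb.

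Among genes of late NK cells, Gzma had the smallest adjusted p. Gzma, which encodes granzyme A (chr13:113093825-113100981, minus strand, mm10, GENCODE M21), had 4399, 5438 and 4155 CPM in Cd27-only cells and 7265, 9107 and 7968 in double-positive cells. The highest Cd27-only tag was below the lowest double-positive tag. The fold on the log2 scale was -0.77 (SE 0.03, edgeR adjusted p = 1.2e-17). Gzma UMIs were in 84.3% of thinned Cd27-only and 98.4% of thinned double-positive cells, and also in 37.4% of B-gate cells (median depths before thinning 5308, 4330.5 and 4069 UMIs). Gzmb, the granzyme B gene, stood at 123, 160 and 128 CPM against 267, 247 and 239 (log2 fold -0.83, SE 0.10, edgeR adjusted p = 3.2e-07). It was found in 24.6% and 35.9% of thinned cells, against 0.903% of B-gate cells. Prf1, which encodes the pore-forming protein perforin, stood at 487, 513 and 516 CPM against 810, 877 and 756 (log2 fold -0.66, SE 0.06, edgeR adjusted p = 1.1e-09). Neither gene's groups overlapped. Cma1, a chymase gene, stood at 80.9, 78.1 and 66.4 CPM against 170, 195 and 186 (log2 fold -1.26, SE 0.11, edgeR adjusted p = 1.2e-09).

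Of 23 cytotoxic granule genes 21 were tested. Toward Cd27-only cells 6 fell and 1 rose, against 2.03% and 3.57% of all genes tested, and the list's median log2 fold was -0.19. The other lower genes were Nkg7, a granule membrane protein gene (-0.27), Serpinb9 (-0.30) and Serpinb9b (-1.01), the last pair encoding intracellular serine protease inhibitors. Tnfsf10, the gene of the death ligand TRAIL, was the higher one. It stood at 20.5 ± 6.83 against 7.52 ± 4.78 CPM (SD, n = 3), with a log2 fold of 1.34 (edgeR adjusted p = 0.012). Tnfsf10 is also on the list of markers of type 1 innate lymphoid cells (ILC1), and without tag 3 it was at 0.99 (edgeR adjusted p = 0.15). Serpinb9 without tag 3 was at -0.26 (edgeR adjusted p = 0.079), and Serpinb9b without tag 1 at -0.75 (0.13). The remaining 14 did not pass, among them Gzmm (0.12, edgeR adjusted p = 0.88), Fasl (-0.27), the granule proteoglycan gene Srgn (0.15) and the protease genes Ctsc (-0.19), Ctsd (-0.22) and Ctsw (0.03). The genes of granule release and docking Rab27a, Unc13d, Stx11 and Stxbp2 had log2 folds of -0.19, -0.28, -0.59 and 0.07, and none of them passed. The summed level of the list was 10563 ± 839 CPM in Cd27-only, 15193 ± 1052 in double-positive and 19315 ± 734 in Itgam-only cells (SD, n = 3).

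All 24 mature NK genes were tested. Toward Cd27-only cells 20 fell and 0 rose, against 2.03% and 3.57% of all genes tested, with a median log2 fold of -0.52. As said above, this list was chosen with earlier results of these data known. Klrg1, which encodes an inhibitory receptor for cadherins, stood at 31.3, 43.8 and 17.6 CPM against 69.9, 77.0 and 94.7. The groups did not overlap (log2 fold -1.28, SE 0.20, edgeR adjusted p = 2.7e-05). Entpd1, the gene of the ectonucleotidase CD39, stood at 25.5, 19.0 and 22.8 CPM against 40.8, 62.9 and 55.1 (log2 fold -1.24, SE 0.20, edgeR adjusted p = 6.7e-05). It overlaps 3 annotated genes on its own strand, which counting could split. S1pr5, a receptor gene for exit from lymphoid tissue, stood at 61.7, 72.7 and 67.9 CPM against 91.8, 144 and 119 (log2 fold -0.79, SE 0.13, edgeR adjusted p = 5.0e-05). Ccl5, a chemokine gene, stood at 9278, 9594 and 9349 CPM against 11739, 12166 and 12062 (log2 fold -0.32, SE 0.02, edgeR adjusted p = 2.1e-11). Ly6c2 (-0.56), S100a6 (-0.57), Emp3 (-0.41) and Lgals1 (-0.38) passed as well. The 4 that did not pass were Cx3cr1, Itgax, S100a4 and Tbx21. Cx3cr1, the fractalkine receptor gene, was low in both classes, at 9.64 ± 3.56 and 16.4 ± 5.78 CPM (log2 fold -0.65, SE 0.36, edgeR adjusted p = 0.39). S100a4 pointed the other way at 0.39 (edgeR adjusted p = 0.28).

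Promoters of 3 lower genes of killing and tissue exit are shown because they share a 7-base run. They are the 250 bases before the start of Gzmb (chr14:56262335-56262584, minus strand), Prf1 (chr10:61297586-61297835, plus strand) and S1pr5 (chr9:21248444-21248693, minus strand), from RefSeq on GRCm38.p6, printed 5′ to 3′. Capitals mark GGGTGGG or its reverse complement CCCACCC, the CACCC box of Krüppel-like factors.
Gzmb: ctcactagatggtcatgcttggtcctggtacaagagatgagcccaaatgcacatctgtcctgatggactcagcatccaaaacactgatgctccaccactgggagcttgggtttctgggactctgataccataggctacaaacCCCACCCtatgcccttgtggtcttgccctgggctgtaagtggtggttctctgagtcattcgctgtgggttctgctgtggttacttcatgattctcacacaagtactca
Prf1: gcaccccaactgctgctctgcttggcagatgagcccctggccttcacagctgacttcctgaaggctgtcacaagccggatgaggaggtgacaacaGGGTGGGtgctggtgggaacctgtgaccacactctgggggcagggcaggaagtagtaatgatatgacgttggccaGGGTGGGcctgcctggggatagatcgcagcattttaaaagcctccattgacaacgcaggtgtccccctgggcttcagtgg
S1pr5: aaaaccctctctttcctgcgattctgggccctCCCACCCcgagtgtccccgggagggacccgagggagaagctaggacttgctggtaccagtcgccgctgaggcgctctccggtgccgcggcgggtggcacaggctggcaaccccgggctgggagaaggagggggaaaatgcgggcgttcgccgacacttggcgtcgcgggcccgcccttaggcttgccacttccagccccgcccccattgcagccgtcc
The box was found in 38 of 145 lower genes with a promoter in the table (26.2%), 42 of 237 higher genes (17.7%), 1276 of 7081 tested genes (18.0%) and 4198 of 27025 promoters in all (15.5%). These 3 promoters and this run were chosen after the values were seen, out of 9 runs searched on both strands. The others were GGTGTGA, AGGTGTGA and AGGTGT (T-box type, overlapping each other), CTTTGAT and CTTTGAA (TCF type), TGACATCA, ACTTCCT (ETS type) and CACGTG (E-box). CACGTG was in 2.07% of lower and 8.88% of tested genes, TGACATCA in 4.83% and 1.37%, CTTTGAT in 4.83% and 2.33%, and CTTTGAA in 2.07% and 3.30%. ACTTCCT was in 8.97% and 8.08%, GGTGTGA in 2.76% and 2.61%, AGGTGTGA in 1.38% and 0.692%, and AGGTGT in 10.3% and 8.77%. By ratio, 5 of these departed further from tested genes than the run shown, each with 2 to 7 lower genes. They were CACGTG most of all, and, in no order, the TGACATCA run, the pair of TCF type and AGGTGTGA. A match describes these letters and shows no binding.

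Of 31 transcription factor genes 30 were tested, with 5 up and 4 down in Cd27-only cells (median log2 fold -0.04). The shares over all genes tested were 3.57% up and 2.03% down. Zeb2, the gene of a transcriptional repressor that promotes late maturation of NK and CD8 T cells, stood at 465, 432 and 453 CPM against 704, 703 and 754 (log2 fold -0.65, SE 0.06, edgeR adjusted p = 2.7e-09). Klf2, a Krüppel-like factor of quiescence and trafficking, stood at 997, 939 and 812 CPM against 1527, 1203 and 1097 (log2 fold -0.44, SE 0.05, edgeR adjusted p = 1.8e-07). For both genes every Cd27-only tag was below every double-positive tag. Prdm1, the gene of the repressor Blimp-1, had a log2 fold of -0.89 (SE 0.16, edgeR adjusted p = 2.1e-04), but tag 1 of double-positive cells, at 45.2 CPM, stood close to the highest Cd27-only tag at 45.1. Irf8 was at -0.39 with the tag block (edgeR adjusted p = 0.0020) and did not pass without it (adjusted p = 0.090).

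On the higher side stood Tox, a factor of early innate lymphoid development, at 652, 639 and 518 CPM against 338, 388 and 334 (log2 fold 0.80, SE 0.07, edgeR adjusted p = 8.7e-10). Ikzf2, which encodes Helios, stood at 84.8, 79.2 and 104 CPM against 29.1, 31.5 and 39.6 (log2 fold 1.44, SE 0.17, edgeR adjusted p = 1.8e-07). Tox and Ikzf2 groups did not overlap. Tcf7 and Myb are given above, and Zeb1 (0.34) passed but not without tag 1 (0.35, edgeR adjusted p = 0.061) or tag 3 (0.26, adjusted p = 0.16). The T-box factor genes that define NK cells showed small differences that did not pass. Eomes stood at 334, 284 and 250 CPM against 354, 330 and 279 (log2 fold -0.12, SE 0.08, edgeR adjusted p = 0.48), and its fold was 0.17 in thinned sums. Tbx21 stood at 176, 204 and 220 CPM against 192, 222 and 236 (log2 fold -0.09, SE 0.09, edgeR adjusted p = 0.73). With classes drawn from unthinned counts both passed as lower, at -0.24 each (edgeR adjusted p = 3.2e-04 and 0.0021), and Eomes also under another thinning (-0.24, adjusted p = 0.039). Id2 (-0.02), Gata3 (-0.03), Runx3 (0.09), Ets1 (-0.05) and Nfil3 (-0.05) did not pass either.

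Of 38 NK receptor genes 34 were tested. Toward Cd27-only cells 9 rose and 6 fell, against 3.57% and 2.03% of all genes tested, and the median log2 fold was -0.09. The Ly49 family, inhibitory and activating receptors for MHC class I, held 4 of the 6 lower genes. Klra8, the gene of Ly49H, stood at 1188, 1251 and 929 CPM against 1650, 1655 and 1752 (log2 fold -0.56, SE 0.06, edgeR adjusted p = 4.4e-08). Klra9 (-0.59), Klra3 (-0.54) and Klra4 (-0.37) were also lower, while Klra7 (-0.17), Klra1 (-0.22), Klra6 (-0.23) and Klra10 (-0.29) did not pass. Klra5 was higher (1.70, edgeR adjusted p = 0.0059), but its UMIs lay in 24 Cd27-only cells, and its fold was -0.24 under another random thinning and 1.52 (adjusted p = 0.050) without tag 3. These genes are close copies of each other, so reads may be split among them. Klrc1, the gene of the inhibitory receptor chain NKG2A of early NK cells, was at 0.37 (edgeR adjusted p = 0.011) and at 0.27 (adjusted p = 0.20) without tag 1. Its partner gene Klrd1 was at -0.19 (edgeR adjusted p = 0.015), at -0.18 (0.14) without tag 1 and at -0.17 (0.076) without tag 3.

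Cd226, which encodes the activating receptor DNAM-1, stood at 159, 225 and 292 CPM against 93.2, 130 and 150. The groups did not overlap, and the fold on the log2 scale was 0.87 (SE 0.10, edgeR adjusted p = 1.9e-07). Without cells holding an ILC1 marker it was 0.28 (edgeR adjusted p = 0.38). Cd69, an activation and retention receptor gene, was at 0.56 (edgeR adjusted p = 3.6e-04), and the inhibitory receptor gene Lilrb4a at 2.03 (edgeR adjusted p = 3.6e-04; 0.83 with adjusted p = 0.17 under another thinning). Lag3, at 8.72 ± 2.06 against 2.39 ± 1.74 CPM (SD, n = 3), passed narrowly (edgeR adjusted p = 0.048) and in none of the fits that left out a tag (adjusted p of 0.094, 0.28 and 0.11). Among 16 signaling adaptor genes of these receptors, 3 were lower and 0 higher, against 2.03% and 3.57% of all genes tested. The lower genes were Fcer1g (-0.29, edgeR adjusted p = 1.8e-06), Tyrobp (-0.15, adjusted p = 0.021) and the kinase gene Syk (-0.36, adjusted p = 0.018). Without tag 3 Tyrobp was at -0.06 (edgeR adjusted p = 0.49), and Syk was at -0.30 (0.18) without tag 1 and -0.31 (0.18) without tag 2. Hcst, Lck, Fyn, Vav1 and Lcp2 lay between -0.10 and 0.00.

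Of 12 cytokine and chemokine genes 11 were tested, 5 higher and 1 lower, among them Xcl1, Ltb and Ccl5 given above. Over all genes tested the shares were 3.57% and 2.03%. Tnf, the tumour necrosis factor gene, stood at 20.2, 25.6 and 30.1 CPM against 2.91, 4.34 and 1.72 (log2 fold 2.97, SE 0.40, edgeR adjusted p = 2.6e-06). The 10 Cd27-only cells richest in Tnf held 38.2% of its UMIs, and 82 of the 1116 Cd27-only cells held any. Ccl4, a chemokine gene of activated NK cells, stood at 657, 825 and 1026 CPM against 590, 376 and 859. Its groups overlapped, and its log2 fold was 0.54 with the tag block (edgeR adjusted p = 1.9e-04) and 0.51 without it (adjusted p = 0.22). Csf2 (1.70) passed narrowly, at an edgeR adjusted p of 0.031, and was at 1.83 (0.057) without tag 3. Ifng, at 117 against 115 CPM, had a log2 fold of 0.08 (SE 0.13, edgeR adjusted p = 0.83).

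Trafficking receptors and integrins divided, with 3 of 20 tested higher, among them Cxcr3 and Cxcr6, and 4 lower (S1pr5, Itga2, Itga4, Itgb1). All genes tested gave 3.57% higher and 2.03% lower, and the list's median log2 fold was -0.10. Itga2, which encodes the NK marker CD49b, stood at 373, 390 and 323 CPM against 481, 589 and 442 (log2 fold -0.45, SE 0.07, edgeR adjusted p = 2.7e-05). Without tag 2, Itgb1 was at -0.14 (edgeR adjusted p = 0.40). Cxcr6 was at 1.29 (edgeR adjusted p = 0.29) without tag 3. Among 24 tested cytokine receptor and STAT genes, 2 were higher and 4 lower, against 3.57% and 2.03% of all genes tested. Il7r, the interleukin 7 receptor gene, stood at 124, 116 and 210 CPM against 58.3, 36.9 and 41.3 (log2 fold 1.70, SE 0.16, edgeR adjusted p = 2.7e-09), and its groups did not overlap. Il18rap, a subunit gene of the interleukin 18 receptor, was at -0.48 (edgeR adjusted p = 1.0e-05) and Ifngr1 at -0.31 (adjusted p = 1.9e-04). Il12rb2, Jak1 and Il21r lost their calls when tag 1 or tag 2 was left out, at -0.27, -0.20 and 0.72 without tag 1 (edgeR adjusted p = 0.19, 0.054 and 0.20) and -0.27, -0.11 and 0.54 without tag 2 (0.11, 0.40 and 0.40). Il2rb, the receptor chain for interleukins 2 and 15, had a log2 fold of 0.03.

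Genes of ribosomes and of glucose use were measured as well. Of 81 tested ribosomal protein genes 73 were higher and 0 lower, against 3.57% and 2.03% of all genes tested, with a median log2 fold of 0.24. Rps20 stood at 3330 against 2437 CPM and had the highest fold of the list, 0.48 (SE 0.04, edgeR adjusted p = 1.4e-11). Together, ribosomal protein genes took 209371 ± 1195 CPM in Cd27-only, 181461 ± 3599 in double-positive and 163970 ± 4659 in Itgam-only cells (SD, n = 3). Of 14 tested glycolysis genes 2 were higher and 0 lower, to be set beside the same shares of all genes. The higher genes were Gapdh (0.45, edgeR adjusted p = 1.3e-04) and Ldha (0.43, adjusted p = 0.0061, and without tag 2, 0.36 with adjusted p = 0.12). Of 7 tested potassium channel genes 2 were lower, against 2.03% of all genes tested. Kcnj8, an inward rectifier channel gene, stood at 13.5, 14.2 and 15.6 CPM against 23.3, 33.6 and 34.4 (log2 fold -1.05, SE 0.24, edgeR adjusted p = 0.0054). Its groups did not overlap, Itgam-only cells stood at 72.1 ± 8.73, and without tag 2 it was at -0.94 (adjusted p = 0.12). Kcnip3 was at -0.48 (edgeR adjusted p = 0.012), and at -0.42 (0.11) without tag 1.

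**Figure D3:**
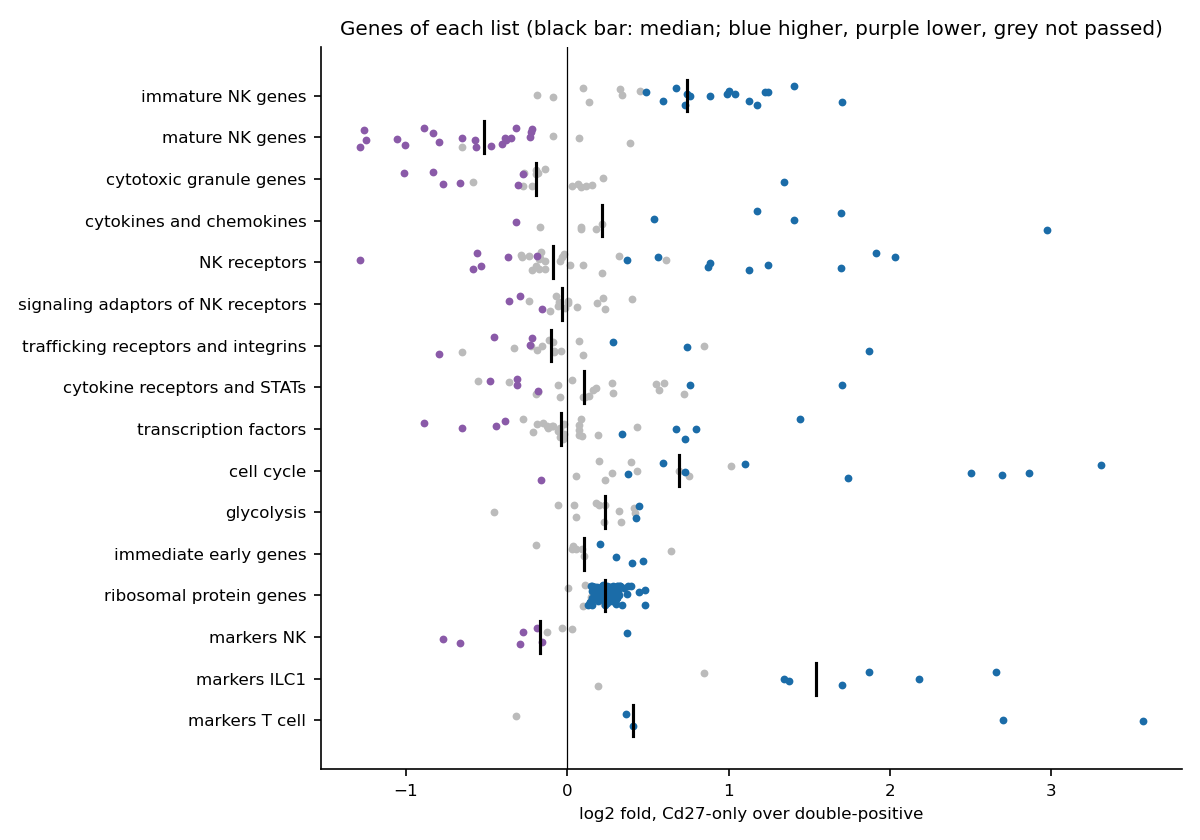
Each point is the log2 fold (Cd27-only over double-positive) of 1 tested gene in 16 lists, blue where higher and purple where lower past the threshold, grey otherwise; black bars are list medians, and the genes used by the rule are left out. The immature list (16 of 23 higher) and the mature list (20 of 24 lower) lie mostly on opposite sides of 0, and ribosomal protein genes form a narrow band above it. Lists were chosen with earlier results of these data known. Of all genes tested, 3.57% were higher and 2.03% lower.

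The largest upward folds were in genes with few UMIs in double-positive cells. Several are genes of DNA replication and division. Hist1h3c, a histone gene, had 95 UMIs in Cd27-only and 0 in double-positive cells, at least 10.3-fold higher against a floor of 3 UMIs over the class. Pclaf, the gene of a PCNA-binding protein, had 264 UMIs against 1, a ratio of 85.7 (95% exact interval 15.3 to 3398, counting error only). Hist1h2ab had 112 against 2 UMIs, a ratio of 18.2 (4.92 to 152), and Rrm2, a ribonucleotide reductase subunit gene, 95 against 3, a ratio of 10.3 (3.41 to 50.7). Their UMIs lay in few cells: the richest 10 Cd27-only cells held 92.6% of Hist1h3c, 73.9% of Pclaf, 88.4% of Hist1h2ab and 70.5% of Rrm2 UMIs. Of 19 tested cell cycle genes 9 were higher and 1 lower (H2afz, -0.16, and -0.09 with edgeR adjusted p = 0.34 without tag 3). Among all genes tested 3.57% were higher and 2.03% lower. The list's summed level was 3245 ± 111 CPM in Cd27-only, 2885 ± 167 in double-positive and 3404 ± 149 in Itgam-only cells (SD, n = 3). Double-positive cells were thus the lowest class, and Cd27-only cells were not above Itgam-only cells. Stmn1 stood at 150 ± 31.1, 71.3 ± 17.5 and 124 ± 16.8 CPM in the same order. Mki67, the gene of the proliferation antigen Ki-67, stood at 33.7, 35.8 and 30.1 CPM against 7.28, 2.17 and 10.3 (log2 fold 2.50, SE 0.34, edgeR adjusted p = 3.0e-06). Itgam-only cells stood at 22.3 ± 14.3 CPM. After thinning, Mki67 was seen in 2.51% of Cd27-only and 1.36% of double-positive cells, and in 1.44% of B-gate cells. Cells with Mki67 or Top2a made up 11.7% of Cd27-only and 8.64% of double-positive cells before thinning, at the depths given above. Without them Hist1h1b turned from 2.69 to -0.77 and Stmn1 from 1.10 to -0.13, and neither passed the edgeR test. Leaving out these cells removes dividing cells by design, so this change was set in part by the selection.

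Other large upward folds were Gpr55 (112 against 2 UMIs, ratio 18.2, 4.92 to 152), which encodes a lysolipid-responsive receptor, and Smco4 (66 against 2, ratio 10.7, 2.85 to 90.3). Asb2 was at 17.6 ± 5.66 against 1.66 ± 1.63 CPM (log2 fold 3.26), Zmat4 at 20.9 ± 7.02 against 2.36 ± 1.01 (3.24) and Batf3, a bZIP transcription factor gene, at 36.9 ± 3.21 against 4.29 ± 1.94 (3.01; SD, n = 3), all with edgeR adjusted p of at most 4.2e-05. Cd3g, a T cell receptor complex chain gene, stood at 44.3, 37.2 and 51.8 CPM against 2.91, 3.25 and 5.16 (log2 fold 3.57, SE 0.33, edgeR adjusted p = 2.5e-09). Tcrg-C4, a constant segment of the gamma T cell receptor, stood at 36.1, 40.2 and 42.5 CPM against 1.46, 5.42 and 3.44 (log2 fold 3.44, SE 0.35, edgeR adjusted p = 1.3e-08). For both, the lowest Cd27-only tag was far above the highest double-positive tag. Dscam, a neural adhesion molecule gene named after its values were seen, stood at 140, 127 and 194 CPM against 36.4, 8.68 and 31.0 (log2 fold 2.70, SE 0.19, edgeR adjusted p = 8.5e-12).

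The 12 largest downward folds outside the rule's genes included Klrg1, Cma1, Entpd1, Kcnj8 and Serpinb9b, given above. Cdc14b, a phosphatase gene, had a log2 fold of -1.02 (SE 0.21, edgeR adjusted p = 0.0019) and kept its call without each tag. The others below each lost their call in at least 1 other fit. Rac3 (-1.07) and Zc2hc1a (-1.07) were at -0.75 (edgeR adjusted p = 0.28) and -0.76 (0.37) without tag 1, and Zc2hc1a was at 0.40 under another thinning. Cdc20b (-1.003) was at -0.93 (0.077) without tag 1 and -0.86 (0.053) without tag 3. Cdh22 (-1.02) and Ndnf (-0.94) were at -1.10 (0.055) and -0.86 (0.25) without tag 2, and at -0.87 (0.091) and -0.76 (0.16) without tag 3. Hba-a1, a haemoglobin gene of red cells (-1.41, edgeR adjusted p = 0.033), stood at 2.91, 14.1 and 27.5 CPM in double-positive cells, and did not pass without the tag block (adjusted p = 0.23).

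Markers of other cells moved with the classes. Of 8 ILC1 markers, all tested, 6 were higher in Cd27-only cells: Il7r, Tmem176a, Tmem176b, Cxcr6, Cd200r1 and Tnfsf10. Itga1 (0.85) and Rora (0.19) did not pass. All marker counts here stand beside 3.57% higher and 2.03% lower over all genes tested. The ILC1 list's median log2 fold was 1.54, and without tag 2 Tmem176b was at 0.84 (edgeR adjusted p = 0.34). Its summed level was 299, 299 and 453 CPM in Cd27-only and 192, 164 and 129 in double-positive cells, with 134 ± 9.04 in Itgam-only cells (SD, n = 3). A UMI of Il7r, Tmem176a, Tmem176b, Cxcr6, Itga1 or Cd200r1 was held by 313 Cd27-only cells (28.0%) and 53 double-positive cells (12.05%), counted before thinning. Of 11 T cell markers 5 were tested and 4 were higher (Cd3g, Cd3d, Trbc1, Trbc2), and the summed level was 867 ± 9.56 against 632 ± 30.7 CPM. Cells with Cd3d, Cd3e or Cd3g made up 15.9% against 5%. Trdc, the delta chain constant gene, was at -0.32 (edgeR adjusted p = 0.28). Kit, Myb and Cdk6 of 4 tested progenitor markers were higher, with a summed level of 221 ± 28.2 against 132 ± 13.7 CPM. Of 10 NK markers 6 were lower (Fcer1g, Klrd1, Tyrobp, Nkg7, Prf1 and Gzma) and 1 higher (Klrc1), all counted in lists above. No B cell, plasma cell, conventional dendritic cell or platelet marker passed, out of 3, 2, 3 and 2 tested. Cox6a2 of 3 plasmacytoid dendritic cell markers (1.22) and Ms4a6c of 3 monocyte markers (-0.76) passed, as did Car2 (0.49) and Hba-a1 (-1.41) of 4 erythroid markers. Without tag 3 Cox6a2 was at 0.73 (edgeR adjusted p = 0.21), and under another thinning Ms4a6c was at 0.0041. Siglech, Ly6g, Retnlg and Rgs5, markers of plasmacytoid dendritic cells, neutrophils and mural cells, were at 0 in both classes, but their lists as a whole were not. Summed levels were 201 ± 26.1 against 173 ± 9.92 CPM for the plasmacytoid list. The neutrophil list had 2.84 ± 1.35 against 3.05 ± 2.04, and the fibroblast or mural list 4.45 ± 2.32 against 5.71 ± 1.68 (SD, n = 3).

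The comparison was repeated without these cells. Leaving out cells with an ILC1 marker left 803 and 387 cells, of which edgeR called 138 genes higher and 47 lower; 131 and 43 of these were among the calls of the full comparison. Immature NK genes were then higher in 11 of 22 tested, mature NK genes lower in 11 of 24 and granule genes lower in 3 of 21 (Gzma, Gzmb and Prf1). The median log2 folds of these lists were 0.65, -0.41 and -0.14, against -0.0043 over all genes tested in that fit. Shares called over all genes are not given for the reduced fits, and those above belong to the full comparison. Il7r, a member of the immature list, had no UMI there because cells with it had been left out. Leaving out cells with Cd3 or cycling markers too left 619 and 336 cells and 105 higher and 39 lower genes. In this last fit edgeR shared the spread fully between genes, unlike in the full comparison. Its p-values can therefore be smaller without stronger evidence. The p-values and calls of this fit, given next, are not on the same footing as those of the full comparison. Xcl1 then stood at a log2 fold of 1.11 (SE 0.10, edgeR adjusted p = 1.0e-26), Emb at 0.78 (adjusted p = 1.1e-15), Gzma at -0.42 (adjusted p = 1.0e-16) and Klrg1 at -1.17 (adjusted p = 1.5e-06). Zeb2 was at -0.31 (edgeR adjusted p = 0.0086), Prf1 at -0.35 (7.8e-04), Cd7 at 0.58 (2.5e-05) and Cma1 at -0.79 (8.8e-07). Calls were lost there for S1pr5 (-0.39, edgeR adjusted p = 0.27), Ly6c2 (-0.19, 0.71), Tcf7 (0.40, 0.22), Kit (0.51, 0.50), Nrgn (0.33, 0.68), Ikzf2 (0.59, 0.51), Kcnj8 (-0.66, 0.42) and Itga2 (-0.23, 0.29). Ribosomal protein genes were higher in 50 of 81, with a median log2 fold of 0.22 against -0.0034 over all genes tested in that fit. Of 11 tested cell cycle genes 0 passed. Cells with Mki67 or Top2a had been left out, so this last count was set in part by the selection and is not read as a result.

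**Figure D4:**
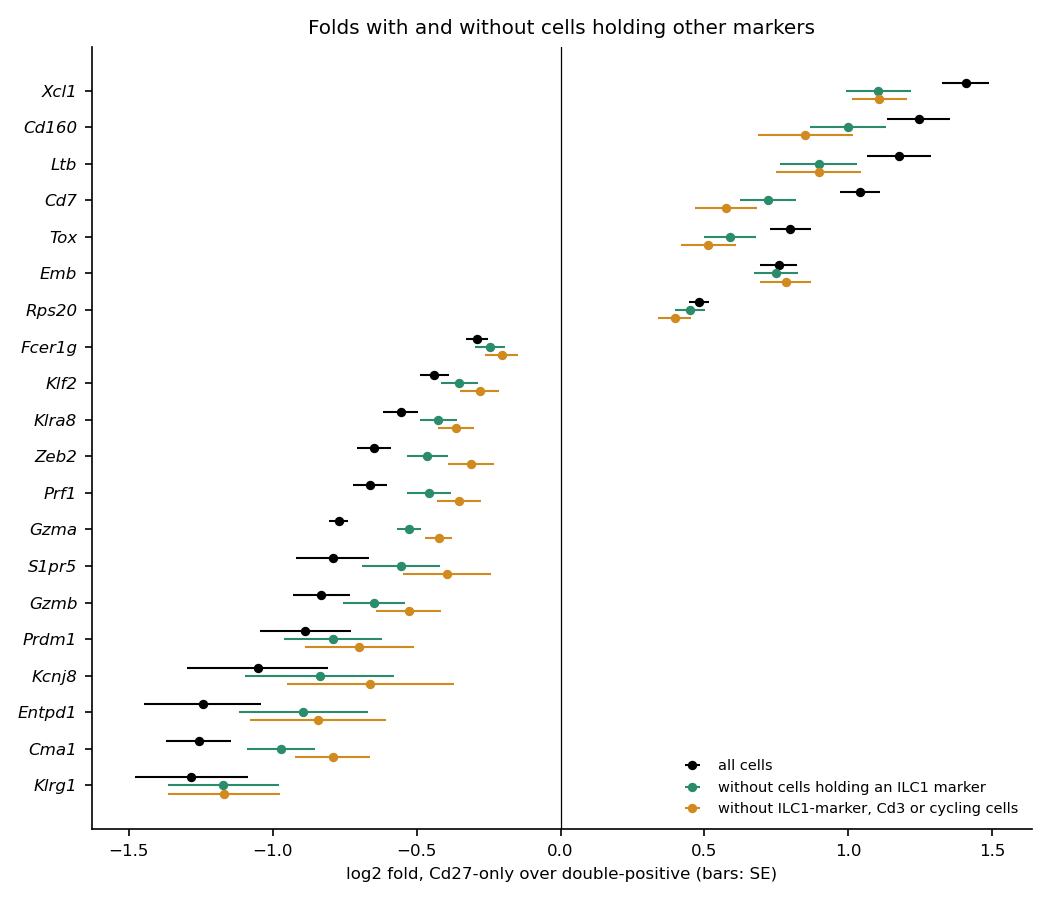
Log2 folds (Cd27-only over double-positive, bars are SE) of 20 genes with all cells (black), without cells holding an ILC1 marker (green) and without cells holding ILC1, Cd3 or cycling markers (orange). All 20 keep their direction; Xcl1 moves from 1.41 to 1.11, Gzma from -0.77 to -0.42, and Emb from 0.76 to 0.78.

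Levels of 6 genes that differed between the classes are given here, without a test, by the Itgam count that divides them. The 4 groups of cells had median depths of 5043, 6298.5, 4466 and 4097.5 UMIs, and the second group was picked partly by depth, since an Itgam UMI had to be lost on thinning. Gzma was at 4017 CPM in the 878 Cd27-only cells with no Itgam UMI even before thinning, and at 6950 in the 238 whose Itgam UMIs thinning had removed. It was at 7591 in the 316 double-positive cells with exactly 1 Itgam UMI and at 9992 in the 124 with 2 or more. Xcl1 stood at 977, 441, 341 and 252 CPM in the same order, Ltb at 333, 163, 157 and 55.2, and Emb at 866, 670, 578 and 298. Zeb2 stood at 400, 593, 675 and 831 CPM, and Cma1 at 63.7, 111, 142 and 303. The 238 cells just inside the Cd27-only class were thus nearer to the cells with 1 Itgam UMI than to the other Cd27-only cells in Gzma, Xcl1, Ltb, Emb, Zeb2 and Cma1.

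**Figure D5:**
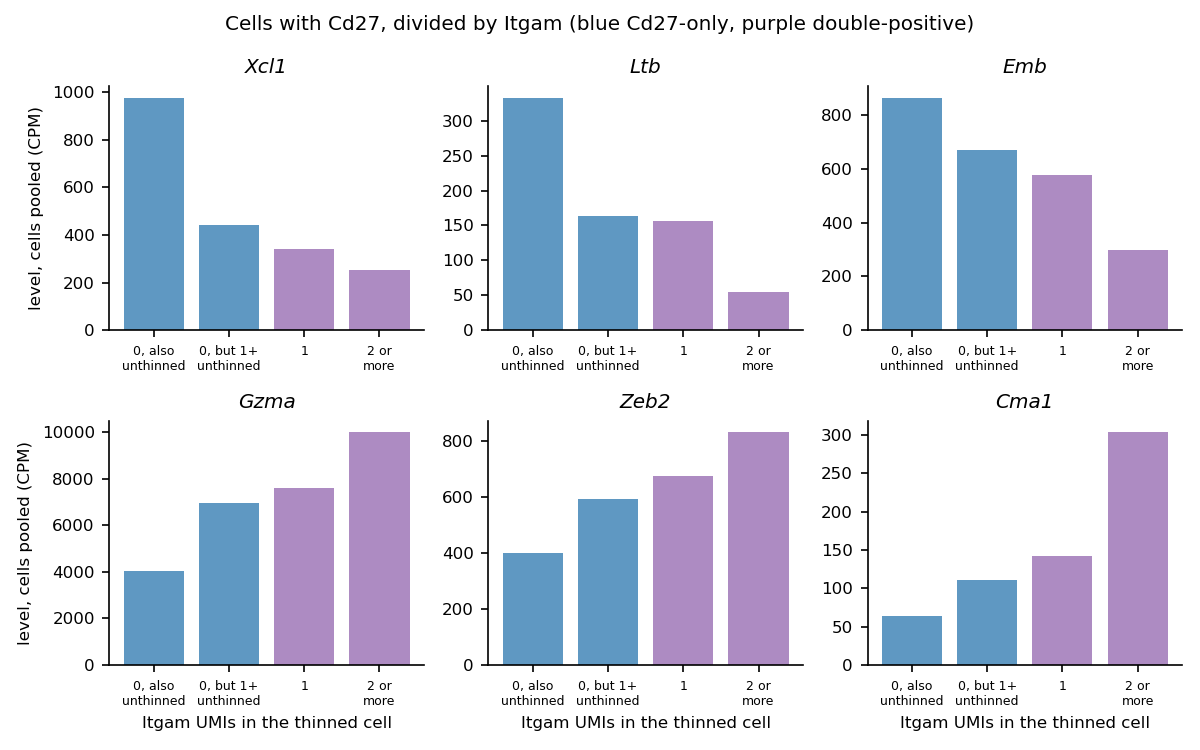
Levels (CPM, cells pooled over tags, axes from 0) of 6 genes in Cd27-positive cells divided by Itgam UMIs: 0 before and after thinning, 0 only after thinning (both Cd27-only, blue), exactly 1, and 2 or more (both double-positive, purple). Xcl1, Ltb and Emb fall and Gzma, Zeb2 and Cma1 rise at every step.

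Between double-positive and Itgam-only cells, the next boundary of the scheme, edgeR tested 9630 genes and called 103 higher (1.07%) and 50 lower (0.519%) in double-positive cells. Both comparisons share the double-positive cells, so their folds are given side by side only. Gzma was at -0.77 for Cd27-only over double-positive and at -0.46 (edgeR adjusted p = 3.9e-08) for double-positive over Itgam-only cells. Zeb2 was at -0.65 and -0.59 (edgeR adjusted p = 1.9e-08), Gzmb at -0.83 and -0.78 (4.4e-08), and Emb at 0.76 and 0.97 (1.8e-09). Klra8 was at -0.56 and 0.08 (edgeR adjusted p = 0.63) and Prdm1 at -0.89 and -0.15 (0.80). Cx3cr1 was at -0.65, which did not pass, and -1.98 (edgeR adjusted p = 2.4e-06), with 61.3 ± 13.2 CPM in Itgam-only cells.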

How the data were processed

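The values are UMI counts per gene and cell, deposited by the authors as 1 filtered matrix made with Cell Ranger 7.0.0 per the file headers, on mm10 per the submitters' processing notes, which also name Seurat. For the annotation release and for intronic reads, the setting is not given in the sources used here. Gene IDs were matched to GENCODE M21 (99.6%).

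Cells had 500 to 6000 genes, at most 10% mitochondrial UMIs and more than 140, 196 or 138 UMIs of exactly 1 of the 3 tags. This removed 3540 barcodes with several tags and 510 with none; no further doublet caller was run. Of 9583 barcodes with at least 2 NK genes, 8978 lacked Trac and Cd79a, and 1028 of these fell under 2500 UMIs. Classes were set on thinned counts, and unthinned counts were summed per class and tag.

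edgeR 4.0.16 (R 4.3.3, limma 3.58.1) was used with TMM scaling, filterByExpr, tag as a block, quasi-likelihood tests and Benjamini-Hochberg adjustment at 0.05. A positive log2 fold is higher in the class named first, SE is the fold over the square root of F, and cells were not used as replicates. Deviations of same-tag sums from their class means correlated at 0.383, 0.260 and 0.205 over 3471 genes, so the tag was kept as a block. Sums of different tags differed beyond sampling noise (chi-square per degree of freedom 1.51 to 2.50). The edgeR step was run on simulated data with known folds. Those data held no tag effect and a spread set in advance, so this run does not test the tag block. Prior degrees of freedom, which set how far spread is shared between genes, were 29.0 in the full comparison. They were infinite (spread fully shared) in each fit without 1 tag and in the fit without ILC1, Cd3 or cycling cells. The p-values of those fits are not on the same footing as those of the full comparison. DESeq2 1.42.0 and 18 other alternatives were run, 2 of them chosen after seeing the data (both leave out marker-holding cells).

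Named genes are the 12 largest folds in each direction among genes past the threshold and the same way in 3 of 3 tags, without the rule's genes, plus members of the lists that passed and a set of anchor genes; a few of these are not reported here. The members and lists were chosen with earlier results of these data known. Intervals cover counting error only. Python 3.11.15, numpy 2.4.6, scipy 1.17.1, pandas 2.3.3 and matplotlib 3.10.9 were used.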

Additional observations from a re-analysis of the deposited data

How the results depend on the processing

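Without the replicate block, 202 genes passed as higher and 81 as lower, against 318 and 181 with it, and all were among the calls of the blocked fit. DESeq2 called 105 and 44, thinned sums 184 and 82, classes from unthinned counts 814 and 603, thinning to 1500 UMIs 153 and 77, and a minimum of 2 Cd27 UMIs 2 and 2. Leaving out cells with ILC1 markers gave 138 and 47, and leaving out cells with ILC1, Cd3 or cycling markers 105 and 39. Lower genes numbered 113 without the deepest cells and 102 without cells holding Cd3 chains. Leaving out 1 tag gave 251 to 318 higher and 126 to 180 lower genes. Keeping barcodes with several tags gave 280 and 153, of which 189 and 84 were calls of the full comparison (59.4% and 46.4% of its calls). The sign stayed there for 315 of the 318 higher and 179 of the 181 lower genes. Of 115 called genes followed over 19 alternatives, 16 kept their call wherever they had a value, among them Xcl1, Gzma, Cd7, Klrg1 and Entpd1. The cause of these shifts was not tested. Another thinning seed gave 319 and 219 genes, of which 218 and 125 were calls of the first. Of the called genes tested again, the sign stayed for 186 of 207 higher and 128 of 146 lower ones with at least 2 Cd27 UMIs, 280 of 287 and 173 of 179 at 1500 UMIs, and 311 of 314 and 175 of 181 with another seed. Among the named genes these turned. With classes from unthinned counts Hba-a1 was at 0.18 and Klra5 at -0.083. Thinned to 1500 UMIs, Zc2hc1a was at 0.25, Tmem176a at -0.0036 and Ccl4 at -0.095. With another seed Zc2hc1a was at 0.40, Gzmm at -0.053, Klra5 at -0.24 and Ms4a6c at 0.0041. Eomes was at 0.17 in thinned sums, 0.0012 without ILC1-marker cells and 0.064 without cells of any of the markers, where Tuba1b was at -0.0032. Gzmm was at -0.18 without Cd3 cells. With at least 2 Cd27 UMIs, Kcnip3 was at 0.017, Jak1 at 0.054, Fgl2 at 0.025, Itgb1 at 0.024, Anxa2 at 0.045 and Tubb5 at -0.33. Stmn1 and Hist1h1b were at -0.071 and -0.23 without the deepest cells, and at -0.13 and -0.77 without cycling cells. Depth limits the double-positive class most, since its largest sum per tag, 922018 UMIs, is below the smallest of Cd27-only cells, 1928942.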

Other observations

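Immediate early genes, which respond within minutes to stimulation or handling, were higher in Cd27-only cells for 4 of 11 tested, Fos, Fosb, Jun and Junb (median log2 fold of the list 0.11). The share over all genes tested was 3.57%. Without the tag block 0 of the 11 passed. Tag 1 stood apart in both classes. Junb was at 1958, 945 and 973 CPM in Cd27-only and 1840, 806 and 840 in double-positive cells, with a log2 fold of 0.20 (edgeR adjusted p = 0.0053) that did not pass without the tag block (adjusted p = 0.84). Fos was at 633, 326 and 240 CPM against 572, 217 and 229 (log2 fold 0.30, edgeR adjusted p = 0.024), and at 0.15 (adjusted p = 0.51) without tag 2. Fosb, at 0.47, was at 0.46 (edgeR adjusted p = 0.086) without tag 1. Without cells holding an ILC1 marker 0 of the 11 passed, without cells holding ILC1, Cd3 or cycling markers 1 (Junb), and without Cd3 cells 2 (Junb and Fos).

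St6galnac3, the gene of a sialyltransferase, and Inpp4b, the gene of a phosphoinositide phosphatase, were picked out after their values were seen. St6galnac3 stood at 141, 192 and 244 CPM against 43.7, 59.7 and 75.7 (log2 fold 1.72, edgeR adjusted p = 9.5e-12). Inpp4b stood at 67.4, 71.6 and 114 CPM against 24.8, 22.8 and 15.5 (log2 fold 1.95, edgeR adjusted p = 3.5e-08). For both genes every Cd27-only tag was above every double-positive tag.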
